A study of Homo sapiens with 8 samples.

Results

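The 5 genes SERPINE2, PLAU, PLAUR, PLAT and FAP, of the plasminogen activation system and its surroundings, were followed across 4 groups of cells. They were taken by gene symbol from the deposited count table, where each symbol has a single row, so they make up 5 of 60708 genes. All 5 were among the 16008 genes that passed the filter on low counts and were tested. SERPINE2 is the only serpin among them, and FAP is not a plasminogen activator but a membrane protease of another family. Other serpins are described only through a list of 35 serpins and serine protease inhibitors, which is not complete.

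Polyadenylated RNA was sequenced from HS578T cells, a long-established line from a human breast cancer, with 2 biological replicate libraries per group. In HSF2oe TGF-β cells, 25 µg of a plasmid encoding the heat shock transcription factor HSF2 was followed by 24 h with TGF-β1 at 10 ng/ml. This cytokine activates SMAD transcription factors. HSF2oe control cells received the same plasmid and 24 h of assay medium alone. Mock TGF-β cells carried a plasmid for green fluorescent protein, also 25 µg, and had 24 h of TGF-β1 at 10 ng/ml. Mock control cells had that plasmid and assay medium alone. All cells were thus transfected, and all were kept in assay medium for the last 24 h. The treatment field of the labels disagrees with the titles and the design text, and the groups here follow the titles.

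Plasminogen is an inactive serum protein that is cut into plasmin, a serine protease that dissolves fibrin and degrades extracellular matrix. The cut is made by urokinase (uPA, from PLAU), which is active mostly at the cell surface when bound to its receptor uPAR (PLAUR), or by tissue plasminogen activator (tPA, from PLAT). SERPINE2, also called protease nexin 1, is a secreted serpin that traps thrombin, uPA and tPA in complexes that cells take up through LDL receptor family proteins, while FAP, fibroblast activation protein, is a serine protease best known from the fibroblasts of tumours.

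Total counts ran from 17427645 to 34336107 per library. By these unadjusted totals 3 counts, the limit that a count of 0 allows, were worth 0.0874 to 0.172 CPM. The CPM values of genes are counts scaled to TMM-adjusted library totals throughout. HSF2 was at 780 and 489 CPM in the HSF2oe TGF-β libraries and 936 and 615 CPM in the HSF2oe control libraries, against 5.40 and 5.75 CPM in the Mock TGF-β and 8.35 and 6.44 CPM in the Mock control libraries. These counts do not tell plasmid transcripts from the cells' own. Library 1 had more HSF2 than library 2 in both HSF2oe groups. Of 6 epithelial markers, EPCAM, KRT19 and CLDN7 were too low to be tested and CDH1 did not pass 1.17 CPM, whereas KRT18 was at 177 to 274 CPM and KRT8 at 15.6 to 26.1 CPM. The labels call the cells epithelial. The 4 mesenchymal markers, VIM, CDH2, ZEB1 and FN1, summed to 42196 to 45852 CPM in HSF2oe TGF-β, 29657 to 31088 in HSF2oe control, 52949 to 59297 in Mock TGF-β and 29388 to 34211 in Mock control libraries, and the blood and endothelial markers summed to at most 8.57 CPM, with CD3E at 0. TMM factors were lower in the TGF-β libraries (0.857 to 1.01) than in the control libraries (1.03 to 1.11), so the choice of scaling matters for what follows. With library totals alone, the median log2 fold change of all genes was -0.27 for TGF-β in Mock cells, -0.17 for TGF-β in HSF2oe cells, 0.19 for HSF2oe with TGF-β and 0.10 for the difference of the TGF-β effects. The share of called genes that were higher then became 13.5%, 22.1% and 76.7% in the first 3 of these comparisons and 64% for HSF2oe without TGF-β, against 53%, 53.8%, 44.6% and 40.3% with TMM factors.

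The genes lie on 4 chromosomes of GRCh38. SERPINE2 (ENSG00000135919.14) is at chr2:223975045-224039318 on the minus strand and FAP (ENSG00000078098.14) at chr2:162170684-162245151, also minus. PLAU (ENSG00000122861.16) is at chr10:73909177-73917496 on the plus strand, PLAUR (ENSG00000011422.12) at chr19:43646095-43670547 on the minus strand and PLAT (ENSG00000104368.19) at chr8:42174718-42207709 on the minus strand. The authors counted without a strand option, so reads of an antisense partner cannot be told apart where exons overlap. PLAU shares 31.0% of its exonic bases with C10orf55, a lncRNA on the other strand with at most 91 counts in a library, and FAP shares 9.16% with the antisense lncRNA AC007750.5, at most 49 counts. The other 3 genes share no exonic base with another gene. Reads within shared bases may also have been counted for neither gene. In that case the levels per length of PLAU and FAP would be too low, and the ratios that hold PLAU would be off. How such reads were assigned was not tested.

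The levels of the 5 genes can be compared with each other only per length, as RPKM (CPM per kilobase of exon, with the exonic lengths of the count table). In HSF2oe TGF-β cells PLAU (127 ± 11.9 RPKM, SD, n = 2) and SERPINE2 (126 ± 3.60) overlapped at the top, ahead of PLAUR (51.9 ± 10.8), PLAT (28.9 ± 6.55) and FAP (11.7 ± 0.551). In HSF2oe control cells PLAU (96.3 ± 12.3 RPKM) stood above PLAUR (46.0 ± 6.40), SERPINE2 (32.9 ± 1.89) and PLAT (31.6 ± 7.47) overlapped, and FAP was at 6.33 ± 0.252. In Mock TGF-β cells SERPINE2 led at 158 ± 8.08 RPKM, followed by PLAU (132 ± 7.62), PLAUR (37.5 ± 0.131), PLAT (26.8 ± 0.634) and FAP (14.0 ± 2.15), without overlap. In Mock control cells the order was PLAU (59.5 ± 0.479 RPKM), SERPINE2 (29.7 ± 0.475), PLAUR (26.3 ± 1.25), PLAT (18.1 ± 0.922) and FAP (6.44 ± 0.967), again without overlap between neighbours. So, by the exonic lengths used, PLAU headed the order without TGF-β, SERPINE2 joined or passed it with TGF-β, and FAP was last in all 4 groups. The lengths count all annotated exonic bases: 8957 for SERPINE2, 7770 for PLAT, 6968 for FAP, 4457 for PLAUR and 2949 for PLAU. Which transcripts the cells made was not tested, and other lengths could change the order. By CPM alone SERPINE2 (266) was above PLAU (176) in Mock control cells. PLAU was among the most abundant genes in every group, at percentile 96.4 to 98.5 of the tested genes by RPKM, while FAP was at percentile 69.1 to 83.6.

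All 5 genes were higher after TGF-β in Mock cells (below 0.05 after adjustment, values in the next paragraphs). Start windows were at hand only for SERPINE2, PLAU and PLAUR, and 1 window of each is shown here. The SERPINE2 start shown, at 224031478, lies inside the gene, downstream of its other start at 224038640. They are RefSeq sequences on GRCh38.p14, from 250 bases before to 50 bases after a transcript start, 5′ to 3′ on the gene's strand, and 3 of the 5 genes had such windows, 5 windows in all. Capitals mark matches on either strand to CAGAC (the core of a SMAD-binding element), TGANTCA (AP-1), GAANNTTC (the core of a heat shock element), CCAAT (a box bound by the factor NF-Y) and GGGCGG (the GC box). The SERPINE2 window is chr2:224031429-224031728, minus strand, the PLAU window chr10:73910882-73911181, plus strand, and the PLAUR window chr19:43670120-43670419, minus strand.
SERPINE2 start window: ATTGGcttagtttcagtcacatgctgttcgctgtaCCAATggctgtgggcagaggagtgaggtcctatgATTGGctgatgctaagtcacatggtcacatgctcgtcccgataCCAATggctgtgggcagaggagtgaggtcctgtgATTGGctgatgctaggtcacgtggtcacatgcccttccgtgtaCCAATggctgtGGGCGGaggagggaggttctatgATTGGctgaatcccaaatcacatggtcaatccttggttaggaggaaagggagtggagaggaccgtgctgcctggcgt
PLAU start window: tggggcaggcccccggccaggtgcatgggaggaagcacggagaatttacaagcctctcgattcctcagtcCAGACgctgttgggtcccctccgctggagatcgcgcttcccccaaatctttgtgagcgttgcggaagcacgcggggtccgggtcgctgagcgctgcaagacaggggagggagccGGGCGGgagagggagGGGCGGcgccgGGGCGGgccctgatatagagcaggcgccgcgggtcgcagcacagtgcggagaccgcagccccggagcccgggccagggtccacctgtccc
PLAUR start window: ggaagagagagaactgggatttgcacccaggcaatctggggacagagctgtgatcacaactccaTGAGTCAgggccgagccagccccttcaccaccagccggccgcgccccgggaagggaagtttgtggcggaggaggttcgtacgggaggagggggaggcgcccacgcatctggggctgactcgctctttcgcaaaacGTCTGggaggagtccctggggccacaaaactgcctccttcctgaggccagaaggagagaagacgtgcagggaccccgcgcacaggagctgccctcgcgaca

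The SERPINE2 window holds 7 CCAAT matches, in alternating orientation and all before the start, and 1 GC box. Most of these CCAAT matches lie in a stretch that recurs in tandem within the window with few base changes, so they are not separate occurrences. Of 35114 RefSeq windows of 300 bases, 8 (0.0228%) have at least 7 CCAAT matches and 34.6% have at least 1. The count of at least 7 was looked up after the sequence had been seen. It makes no allowance for such repeats. The PLAU window holds 1 SMAD element core and 3 GC boxes, and the PLAUR window 1 SMAD element core and 1 AP-1 match. The SMAD element core occurs in 45.3% of all windows, the GC box in 45% and the AP-1 motif in 7.71%. A second SERPINE2 window has 2 GC boxes and no other match, and another PLAU window has 2 SMAD element cores and 1 CCAAT match. None of the 5 windows has a GAANNTTC match, which 6.77% of all windows have. These are letter matches within short windows and not measured binding.

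The first question was what TGF-β did to these genes in Mock cells. All 5 rose, by 5.33-fold for SERPINE2 and by 1.43- to 2.22-fold for the others, where 7.32% of the 16008 tested genes rose and 6.5% fell (edgeR quasi-likelihood test, Benjamini-Hochberg adjusted p below 0.05, the threshold used throughout). The calls of SERPINE2, PLAU and FAP held in every alternative tried, those of PLAUR and PLAT did not. The median log2 fold change was 1.12 over the 5 genes and -0.0044 over all genes tested. The 5 genes were chosen with earlier results of these data known. Their counts beside the shares of all genes, here and below, are therefore a description and not a test. In bulk RNA, more cells that express a gene and more RNA per cell cannot be told apart.

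SERPINE2, the inhibitor, was at 1367 and 1469 CPM in the Mock TGF-β libraries and at 269 and 263 CPM in the Mock control libraries. The groups were far apart, and the log2 fold change of 2.42 ± 0.10 (SE, adjusted p = 2.32e-08) had the third smallest p of all genes tested and ranked 152nd by size. PLAU, the activator urokinase, was at 374 and 406 CPM with TGF-β and at 175 and 177 CPM without. Its replicates lay close together in both groups, and the log2 fold change was 1.15 ± 0.11 (adjusted p = 2.24e-05). FAP, the membrane protease, was at 86.8 and 108 CPM with TGF-β and at 40.1 and 49.7 CPM without, with a log2 fold change of 1.12 ± 0.13 (adjusted p = 6.67e-05). In both Mock groups library 2 had the higher FAP value, and the groups did not overlap.

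PLAUR, the urokinase receptor, was at 168 and 167 CPM in Mock TGF-β and at 113 and 121 CPM in Mock control libraries, a log2 fold change of 0.51 ± 0.14 (adjusted p = 0.0224). PLAT, the other activator, was at 212 and 205 CPM with TGF-β and at 146 and 135 CPM without, a log2 fold change of 0.57 ± 0.16 (adjusted p = 0.0314). The groups did not overlap for either gene, and both log2 fold changes were smaller than that of PLAU. Both calls were lost with library totals alone, at log2 fold changes of 0.25 (adjusted p = 0.158) and 0.31 (adjusted p = 0.149), and whenever any of the 4 Mock libraries was left out. Without a single library the adjusted p of PLAUR ran from 0.0648 to 0.156 and that of PLAT from 0.105 to 0.155, so that 3 of the 5 genes passed. Over all alternatives the adjusted p ran from 0.000213 to 0.158 for PLAUR and from 1.79e-05 to 0.155 for PLAT.

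**Figure D1:**
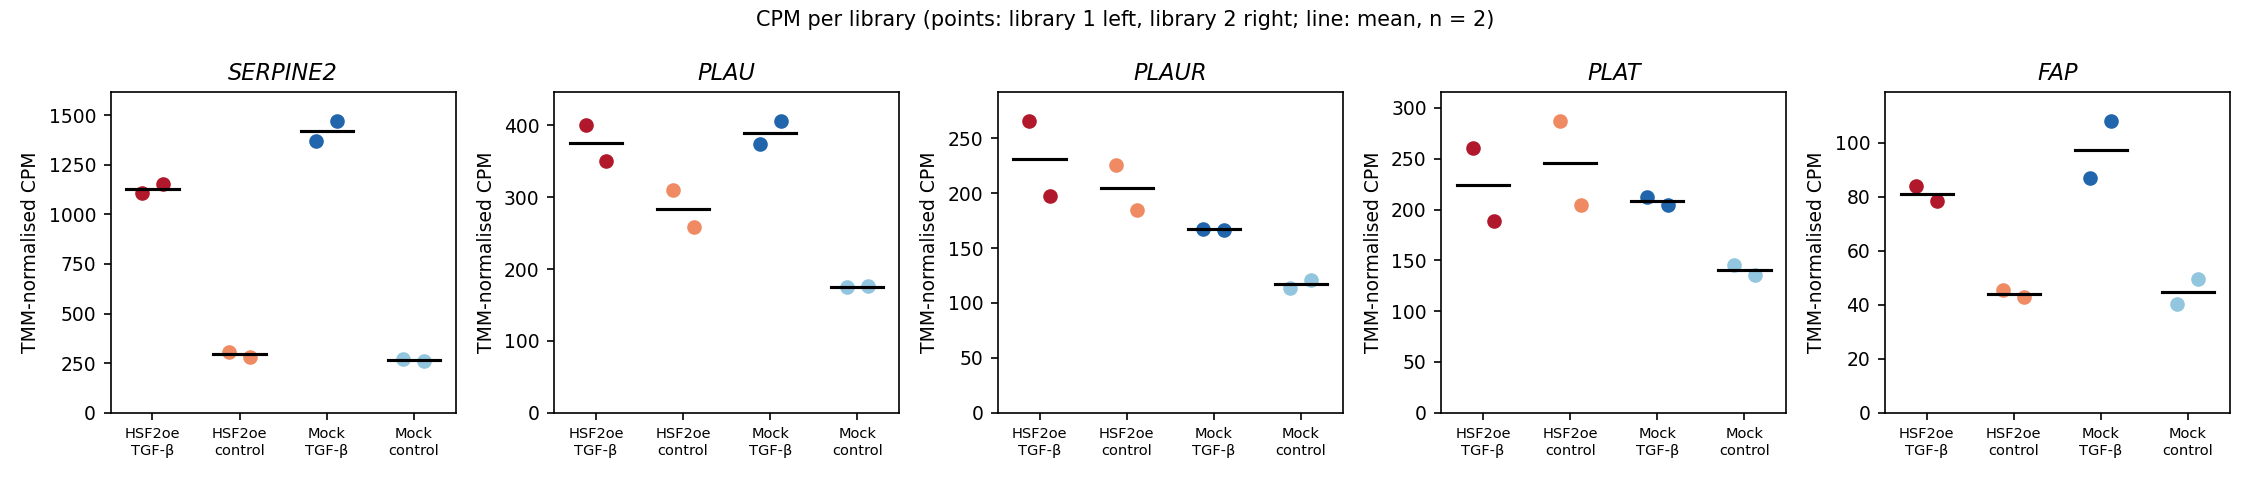
CPM of the 5 genes in each library (points, library 1 on the left and library 2 on the right of each group) with the group mean (line, n = 2), on linear axes from 0 that differ between panels. SERPINE2 is at 1106 to 1469 CPM in the 4 TGF-β libraries and at 263 to 307 CPM in the 4 control libraries, whereas PLAT overlaps between the HSF2oe TGF-β and HSF2oe control groups.

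The same question was asked of cells that carried the HSF2 plasmid. There TGF-β raised SERPINE2, FAP and PLAU, 3 of the 5 genes, where 4.45% of tested genes rose and 3.82% fell, and the median log2 fold change was 0.40 over the 5 genes and -0.0092 over all. SERPINE2 was at 1106 and 1152 CPM in HSF2oe TGF-β and at 307 and 283 CPM in HSF2oe control libraries, a log2 fold change of 1.94 ± 0.10 (adjusted p = 2.39e-07), or 3.83-fold. FAP was at 83.9 and 78.5 CPM with TGF-β and at 45.3 and 42.8 CPM without, a log2 fold change of 0.88 ± 0.13 (adjusted p = 0.000629). The groups of both genes were well apart, and both calls held in every alternative tried.

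PLAU was at 400 and 351 CPM in HSF2oe TGF-β and at 310 and 258 CPM in HSF2oe control libraries, a log2 fold change of 0.40 ± 0.11 (adjusted p = 0.0413). Its groups did not overlap, but the lower TGF-β library was nearer to the higher control library than the replicates were to each other. The call was lost with library totals alone (0.24, adjusted p = 0.177), when only the 4 HSF2oe libraries were fitted (0.41, adjusted p = 0.0782), without HSF2oe control library 2 (0.27, adjusted p = 0.301), without HSF2oe TGF-β library 1 (0.30, adjusted p = 0.239) and without HSF2oe TGF-β library 2 (0.49, adjusted p = 0.0505). Over all alternatives its adjusted p ran from 0.00307 to 0.301.

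PLAUR was at 265 and 197 CPM in HSF2oe TGF-β and at 225 and 185 CPM in HSF2oe control libraries, and the groups overlapped. Its log2 fold change of 0.18 did not pass (95% interval -0.11 to 0.46, adjusted p = 0.537). PLAT was at 260 and 188 CPM with TGF-β and at 287 and 205 CPM without, a log2 fold change of -0.13 (95% interval -0.48 to 0.21, adjusted p = 0.726). For both genes library 1 was above library 2 in each HSF2oe group, by 0.28 to 0.49 on the log2 scale, and HSF2 itself was higher in the same libraries. The part of the HSF2 level in this spread was not tested.

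Whether TGF-β acted differently on these genes with and without the HSF2 plasmid was tested as the difference of the log2 fold changes, HSF2oe minus Mock. All 5 differences were below 0, and none passed. edgeR called 0 of the 16008 genes (0%) in this test, with 977 at an unadjusted p below 0.05, while DESeq2 called 23. The difference was -0.75 ± 0.16 for PLAU (adjusted p = 0.268), the 22nd smallest p-value of all genes. It was -0.48 ± 0.14 for SERPINE2 (adjusted p = 0.646), -0.70 ± 0.23 for PLAT (adjusted p = 0.729), -0.34 ± 0.19 for PLAUR (adjusted p = 0.854) and -0.23 ± 0.18 for FAP (adjusted p = 0.895). PLAU passed with DESeq2 (adjusted p = 0.018) and without the filter on low counts (adjusted p = 0.0018), and its adjusted p ran up to 0.999 over the alternatives. PLAT passed without the filter (adjusted p = 0.00805), and its adjusted p also ran up to 0.999. A further fit, with the replicate number as a block, is described in the last section. Because the comparisons of TGF-β in HSF2oe and Mock cells and of HSF2oe with and without TGF-β share libraries, the PLAU difference given here and the PLAU level of HSF2oe control cells given next are not separate observations.

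**Figure D2:**
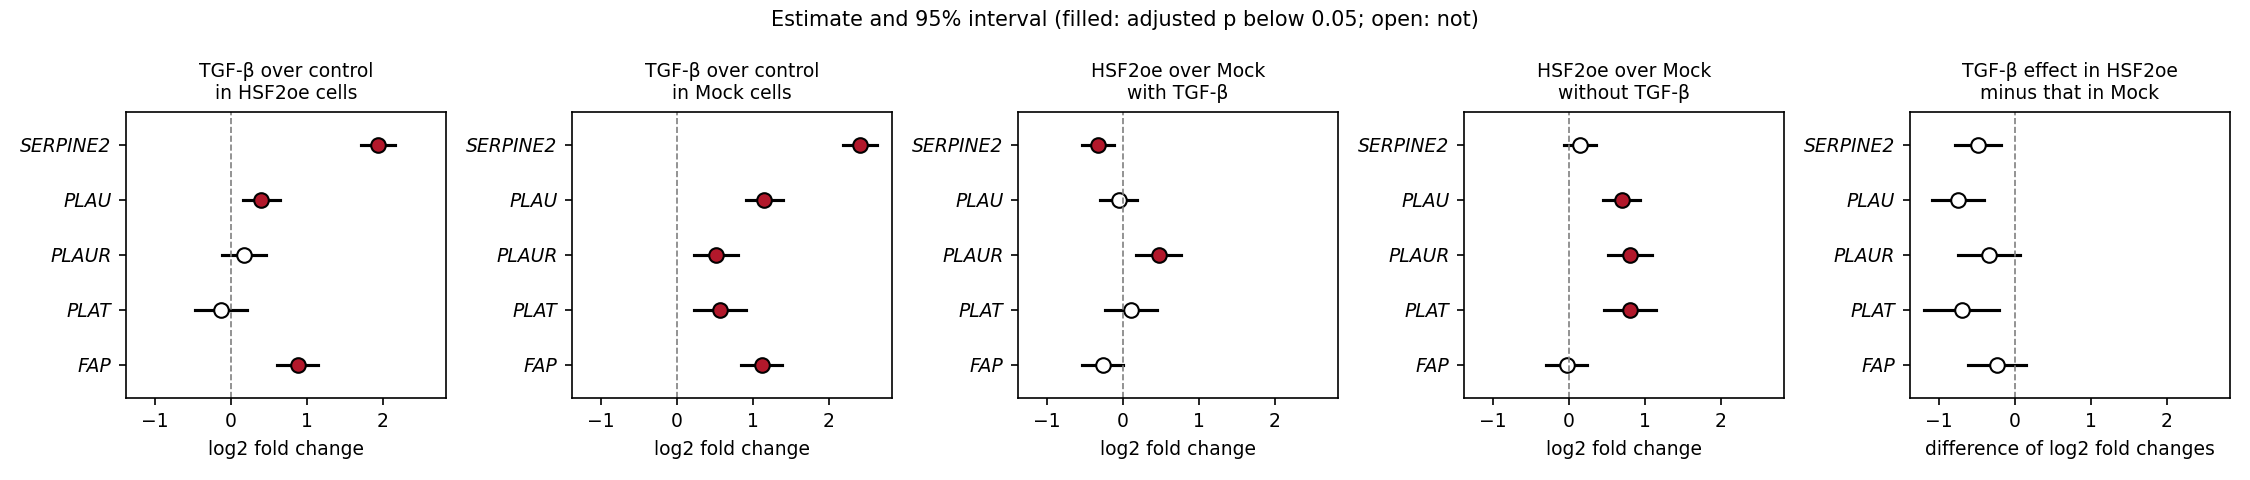
Log2 fold change of each gene with its 95% interval in the 4 comparisons, and the difference of the TGF-β effects in the right panel, from edgeR; filled points have an adjusted p below 0.05. SERPINE2 stands at 1.94 and 2.42 in the TGF-β panels, PLAU, PLAUR and PLAT at 0.69 to 0.81 for HSF2oe without TGF-β, and no point is filled in the right panel.

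The next comparison was between the plasmids in cells kept without TGF-β. The activators PLAU and PLAT and the receptor PLAUR were higher in HSF2oe cells, by 1.62- to 1.75-fold, whereas neither SERPINE2 nor FAP passed. Of all tested genes 4.88% were higher in HSF2oe and 7.22% lower. The median log2 fold change was 0.69 over the 5 genes and -0.0023 over all.

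PLAU was at 310 and 258 CPM in HSF2oe control and at 175 and 177 CPM in Mock control libraries, a log2 fold change of 0.69 ± 0.11 (adjusted p = 0.00223). PLAUR was at 225 and 185 CPM in HSF2oe control and at 113 and 121 CPM in Mock control libraries, a log2 fold change of 0.81 ± 0.14 (adjusted p = 0.00271). Both groups of HSF2oe values lay above every Mock value, and both calls held in every alternative tried. PLAT was at 287 and 205 CPM in HSF2oe control and at 146 and 135 CPM in Mock control libraries, a log2 fold change of 0.81 ± 0.16 (adjusted p = 0.00681). HSF2oe control library 1 was far above library 2 for PLAT, and the call was lost without it (0.54, adjusted p = 0.101) and without Mock control library 2 (0.76, adjusted p = 0.0733), within a range of 1.76e-11 to 0.101 over all alternatives.

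SERPINE2 was at 307 and 283 CPM in HSF2oe control and at 269 and 263 CPM in Mock control libraries. Its groups did not overlap, and the log2 fold change of 0.15 did not pass (95% interval -0.06 to 0.36, adjusted p = 0.36). FAP was at 45.3 and 42.8 CPM in HSF2oe control and at 40.1 and 49.7 CPM in Mock control libraries, where the Mock values enclose the HSF2oe values. Its log2 fold change was -0.03 (95% interval -0.30 to 0.24, adjusted p = 0.915).

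With TGF-β in both, HSF2oe cells had less SERPINE2 and more PLAUR than Mock cells. In that comparison 9.6% of tested genes were higher and 11.9% lower, a background against which 1 of 5 in each direction says little about these genes, and the median log2 fold change was -0.05 over the 5 genes and -0.0032 over all. SERPINE2 was at 1106 and 1152 CPM in HSF2oe TGF-β and at 1367 and 1469 CPM in Mock TGF-β libraries, a log2 fold change of -0.33 ± 0.10 (adjusted p = 0.0308). PLAUR was at 265 and 197 CPM in HSF2oe TGF-β and at 168 and 167 CPM in Mock TGF-β libraries, a log2 fold change of 0.47 ± 0.14 (adjusted p = 0.0252). The groups did not overlap for either gene, and neither call was steady. That of SERPINE2 was lost with library totals alone (-0.14, adjusted p = 0.354), when only the 4 TGF-β libraries were fitted (-0.32, adjusted p = 0.077) and without any single one of these libraries (adjusted p from 0.0691 to 0.209), within a range from 0.00428 to 0.354. That of PLAUR was lost without Mock TGF-β library 1 (0.49, adjusted p = 0.0781), Mock TGF-β library 2 (0.48, adjusted p = 0.115) or HSF2oe TGF-β library 1 (0.24, adjusted p = 0.297), within a range from 0.000153 to 0.297. So 0 or 1 of the 5 genes passed when a TGF-β library was left out.

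PLAU was at 400 and 351 CPM in HSF2oe TGF-β and at 374 and 406 CPM in Mock TGF-β libraries, the same range, with a log2 fold change of -0.05 (95% interval -0.29 to 0.19, adjusted p = 0.777). PLAT was at 260 and 188 CPM in HSF2oe TGF-β and at 212 and 205 CPM in Mock TGF-β libraries, with a log2 fold change of 0.11 (95% interval -0.24 to 0.45, adjusted p = 0.685). For both genes the groups overlapped. FAP was at 83.9 and 78.5 CPM in HSF2oe TGF-β and at 86.8 and 108 CPM in Mock TGF-β libraries, with a log2 fold change of -0.26 (95% interval -0.53 to 0.01, adjusted p = 0.154).

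SERPINE2 was set against the activators as a ratio of RPKM within a library, which library scaling does not touch. Other inhibitors are not in this ratio, and SERPINB2, described further on, was at 34.5 and 12.4 RPKM in HSF2oe TGF-β, 78.8 and 29.7 in HSF2oe control, 9.88 and 4.84 in Mock TGF-β and 21.8 and 12.97 in Mock control libraries. It stood above SERPINE2 (34.3 RPKM) in HSF2oe control library 1. SERPINE2 over PLAU was 0.910 and 1.08 in HSF2oe TGF-β, 0.326 and 0.361 in HSF2oe control, 1.20 and 1.19 in Mock TGF-β and 0.507 and 0.490 in Mock control libraries. The ratio was lower in every control library than in any TGF-β library and, at each treatment, lower in the HSF2oe than in the Mock libraries. SERPINE2 over PLAT was 3.69 and 5.31 in HSF2oe TGF-β, 0.928 and 1.20 in HSF2oe control, 5.60 and 6.22 in Mock TGF-β and 1.60 and 1.68 in Mock control libraries, in the same order. PLAU over PLAUR, the ligand over its receptor, was 2.28 and 2.69 in HSF2oe TGF-β, 2.08 and 2.11 in HSF2oe control, 3.38 and 3.68 in Mock TGF-β and 2.33 and 2.20 in Mock control libraries. That ratio was highest in Mock cells with TGF-β, where the log2 fold change with TGF-β was 1.15 for PLAU and 0.51 for PLAUR. These ratios restate the levels above, are transcript ratios and not protein or activity, and were not tested. Their size, but not their order across libraries, depends on the exonic lengths used.

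**Figure D3:**
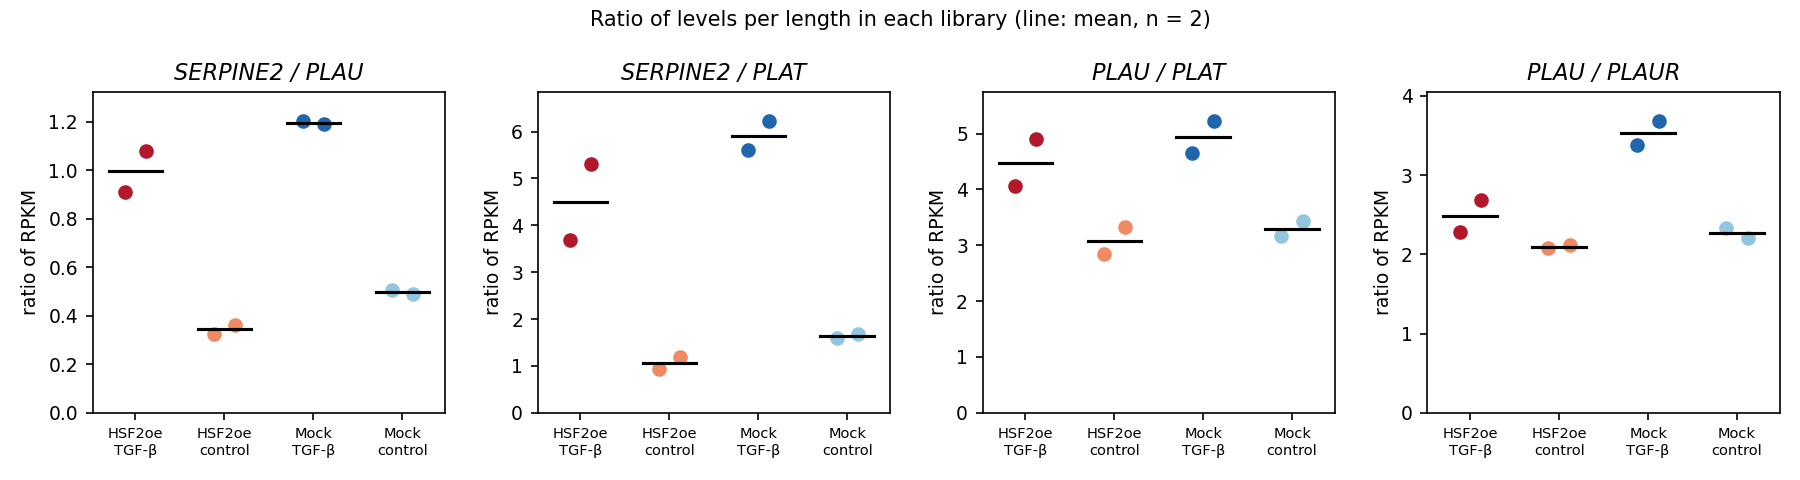
Ratios of RPKM within each library (points, with library 1 on the left, and the mean as a line, n = 2), on linear axes from 0. SERPINE2 over PLAU is 0.910 to 1.20 in the TGF-β libraries and 0.326 to 0.507 in the control libraries, and PLAU over PLAUR is highest in Mock TGF-β.

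The 5 genes differed over the 8 libraries in the size or pattern of their changes. As the root mean square difference of log2 CPM centred on each gene's mean, PLAUR and PLAT were the closest pair (0.16) and SERPINE2 and PLAT the most distant (1.03). This difference was not scaled, so it holds the size of changes (SD 1.17 for SERPINE2, 0.556 for FAP) as well as their pattern. PLAU lay at a like distance from PLAUR (0.30), PLAT (0.30) and FAP (0.30). SERPINE2 was nearest to FAP (0.60). By the same measure over 11672 candidate genes, the genes most like SERPINE2 were PMEPA1 (0.19), LINC01711 (0.20) and SLC46A3 (0.20), and those most like PLAU were RUNX1 (0.12), IL18BP (0.14) and INTU (0.14). Those most like PLAUR were KLF5 (0.07), KIAA1549L (0.08) and CLCF1 (0.09), those most like PLAT were IRF7 (0.12), CTD-2368P22.1 (0.12) and LAMB3 (0.12), and those most like FAP were CEMIP2 (0.09), APCDD1L (0.11) and HIC1 (0.11). With 8 libraries in 4 groups, this likeness rests on few points, and each pair of genes shares the same libraries.

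Of the genes that act beside these 5, the largest list held plasminogen, its receptors and the surface partners of uPA, uPAR and tPA. Of its 27 genes 18 were tested. PLG itself, which the liver supplies to serum, had at most 2 counts in a library. TGF-β raised 5 and lowered 1 of the 18 in Mock cells (median log2 fold change 0.22) and raised 4 and lowered 1 in HSF2oe cells (median 0.12), while 4 were lower and none higher in HSF2oe than in Mock cells without TGF-β (median -0.20), and 7 lower and none higher with TGF-β (median -0.24). Of all tested genes, TGF-β raised 7.32% and lowered 6.5% in Mock cells and raised 4.45% and lowered 3.82% in HSF2oe cells, and 4.88% were higher and 7.22% lower in HSF2oe than in Mock cells without TGF-β, against 9.6% higher and 11.9% lower with TGF-β. None of the 18 passed in the difference of the TGF-β effects. The gene that TGF-β lowered was S100A10, by -0.59 ± 0.11 on the log2 scale in Mock cells (adjusted p = 0.00209, named after its value was seen). In HSF2oe cells its log2 fold change was -0.48 ± 0.11 (adjusted p = 0.01175). The Mock call held in every alternative tried. The HSF2oe call was lost without HSF2oe control library 2 and without either HSF2oe TGF-β library.

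VLDLR, an LDL receptor family member that takes up protease-serpin complexes, was at 16.8 and 20.9 CPM in HSF2oe TGF-β, 12.4 and 14.6 in HSF2oe control, 68.7 and 62.9 in Mock TGF-β and 30.1 and 36.6 in Mock control libraries. It was lower in HSF2oe than in Mock cells both with TGF-β (log2 fold change -1.81 ± 0.14, adjusted p = 9.64e-06) and without (-1.31 ± 0.14, adjusted p = 0.000282). LRP1, the main uptake receptor of uPA-serpin complexes, was at 752 and 761 CPM in HSF2oe TGF-β and at 1393 and 1630 CPM in Mock TGF-β libraries (log2 fold change -0.999 ± 0.12, adjusted p = 0.000202). So VLDLR and LRP1 were lower in the HSF2oe TGF-β libraries than in every Mock TGF-β library. LRP8, another LDL receptor family member of the list, did not pass in that comparison (-0.11 ± 0.12, adjusted p = 0.534). TGF-β raised VLDLR in Mock cells by 0.98 ± 0.13 (adjusted p = 0.000257, named after its value was seen) and LRP1 by 0.91 ± 0.12 (adjusted p = 0.000253) on the log2 scale. MRC2, a collagen receptor that associates with uPAR, and the integrin subunit ITGAV rose in Mock cells by 0.84 ± 0.11 (adjusted p = 0.000238) and 1.05 ± 0.12 (adjusted p = 7.78e-05), and both were lower in HSF2oe than in Mock cells with TGF-β (-0.68 ± 0.11, adjusted p = 0.0012, and -0.82 ± 0.12, adjusted p = 0.000575). ITGA5 rose with TGF-β in Mock (1.12 ± 0.11, adjusted p = 2.96e-05) and HSF2oe cells (0.81 ± 0.11, adjusted p = 0.000529). These calls held in every alternative tried. TGF-β in HSF2oe cells also raised ITGAV (0.67 ± 0.12, adjusted p = 0.00334) and MRC2 (0.58 ± 0.11, adjusted p = 0.00579). It raised LRP1 there by 0.49 ± 0.12 (adjusted p = 0.02485), and VLDLR did not pass (0.48 ± 0.14, adjusted p = 0.0538). Of these, the ITGAV call held in every alternative, and that of MRC2 was lost without HSF2oe control library 2. ITGA5 was also lower in HSF2oe than in Mock cells with TGF-β (-0.45 ± 0.11, adjusted p = 0.0121). Without TGF-β, LRP1 (-0.57 ± 0.12, adjusted p = 0.00997), ITGAV (-0.44 ± 0.12, adjusted p = 0.0297) and MRC2 (-0.41 ± 0.11, adjusted p = 0.0304) were also lower in HSF2oe than in Mock cells. Each of those calls without TGF-β was lost in some alternatives.

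**Figure D4:**
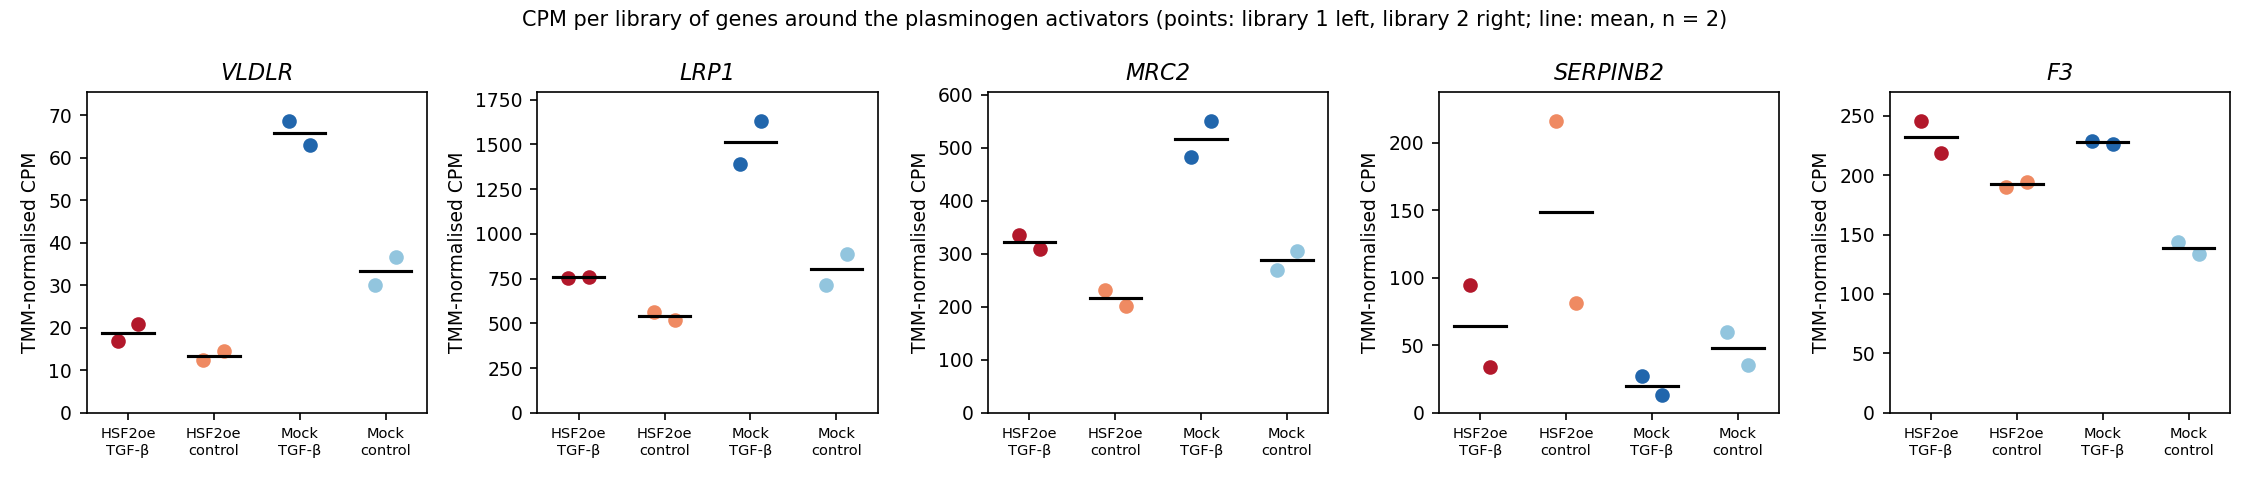
CPM per library of 5 genes around the plasminogen activators (points, with library 1 on the left, and the mean as a line, n = 2), on linear axes from 0. VLDLR and LRP1 are lower in HSF2oe TGF-β than in Mock TGF-β libraries, and SERPINB2 differs widely between the replicates of each group.

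Of 35 other serpins and serine protease inhibitors 13 were tested. TGF-β raised 1 and lowered none in both Mock (median log2 fold change -0.16) and HSF2oe cells (median -0.29), and 3 were higher and 3 lower in HSF2oe than in Mock cells without TGF-β (median -0.17), against 1 higher and 4 lower with TGF-β (median 0.0017). The shares of all tested genes were 7.32% raised and 6.5% lowered by TGF-β in Mock cells, 4.45% and 3.82% in HSF2oe cells, 4.88% higher and 7.22% lower in HSF2oe cells without TGF-β, and 9.6% and 11.9% with it. The gene that TGF-β raised was SERPINH1, a collagen chaperone without inhibitor activity, by 0.66 ± 0.11 in Mock cells (adjusted p = 0.00156) and by 0.51 ± 0.11 in HSF2oe cells (adjusted p = 0.0136, lost with library totals alone at 0.0539, without HSF2oe control library 1 at 0.131 and without HSF2oe TGF-β library 2 at 0.0777). SERPINH1 was lower in HSF2oe cells with TGF-β (-0.996 ± 0.12, adjusted p = 0.000142) and without (-0.84 ± 0.12, adjusted p = 0.000996). SERPINB2, an inhibitor of uPA and tPA, was at 94.6 and 34.0 CPM in HSF2oe TGF-β, 216 and 81.4 in HSF2oe control, 27.1 and 13.3 in Mock TGF-β and 59.7 and 35.5 in Mock control libraries. Library 1 was above library 2 in every group, as for HSF2 in the HSF2oe groups. Its log2 fold changes of HSF2oe over Mock, 1.70 ± 0.50 with TGF-β (adjusted p = 0.0278) and 1.65 ± 0.47 without (adjusted p = 0.0368), were lost with DESeq2 (adjusted p = 0.117 and 0.166) and, with TGF-β, without Mock TGF-β library 2 (adjusted p = 0.216) or HSF2oe TGF-β library 1 (adjusted p = 0.337). In cells kept without TGF-β the call was also lost without Mock control library 1 (adjusted p = 0.0557), Mock control library 2 (0.245) or HSF2oe control library 1 (0.422), and on the deposited log2 CPM (0.0668). With single libraries left out, its log2 fold change ran from 0.77 without HSF2oe TGF-β library 1 to 2.30 without Mock TGF-β library 1 in the cells with TGF-β, and from 0.78 without HSF2oe control library 1 to 2.19 without HSF2oe control library 2 in those without.

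SERPINE2 is also a thrombin inhibitor. Of 13 genes of thrombin, tissue factor and the protease-activated receptors, 9 were tested: TGF-β raised 2 and lowered 2 in Mock cells (median log2 fold change 0.44) and lowered 2 in HSF2oe cells (median -0.11), and 3 were higher and 1 lower in HSF2oe than in Mock cells without TGF-β (median 0.15), against none higher and 1 lower with TGF-β (median 0.03). The corresponding shares of all tested genes, higher and lower, were 7.32% and 6.5%, 4.45% and 3.82%, 4.88% and 7.22%, and 9.6% and 11.9%. F3, tissue factor, rose with TGF-β in Mock cells (0.71 ± 0.10, adjusted p = 0.000264), whereas its inhibitor TFPI fell in Mock (-0.74 ± 0.11, adjusted p = 0.000686) and HSF2oe cells (-0.76 ± 0.11, adjusted p = 0.000855). F2R, the thrombin receptor, fell with TGF-β in Mock cells (-0.65 ± 0.11, adjusted p = 0.00142). These 4 calls held in every alternative tried. Among the relatives of FAP, 7 of 9 prolyl peptidase genes were tested, and the only call in the 4 comparisons was a lower PRCP, a lysosomal carboxypeptidase, in HSF2oe cells with TGF-β (-0.56 ± 0.10, adjusted p = 0.00167). DPP4, the closest relative of FAP, did not pass 0.934 CPM. Of 8 genes with the LY6/uPAR domain 6 were tested, and none passed in any comparison.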

How the data were processed

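Per the file headers, the authors counted read pairs per gene with featureCounts 2.0.1 on GENCODE release 38, with no strand setting, for libraries that the labels say were made with a stranded kit. STAR 2.7.9a, Subread 2.0.1, edgeR 3.34.1 and GRCh38 come from the submitters' processing notes. The deposited log2 CPM of 13169 genes lay within 0.0288 of log2 CPM computed here from the counts and served as an alternative.

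The deposited counts went into 2-sided quasi-likelihood F tests of edgeR 4.0.16 (R 4.3.3), after filterByExpr and TMM scaling. The model held 1 mean for each group and all 8 libraries, so groups of 2 shared the spread. P-values were adjusted over 16008 genes (Benjamini-Hochberg, threshold 0.05). Standard errors were derived from the log2 fold change and F. The fit was checked on simulated data. Limits of counts cover counting error only.

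The genes and lists were chosen with earlier results of these data known. List genes named were up to 4 per list and comparison with the smallest p among those called, plus VLDLR and S100A10 for TGF-β in Mock cells. Of these 40 calls 21 held in every alternative, and mainly those are described, chosen with their values in view. The calls of LRP1 for TGF-β in HSF2oe cells and ITGA5 for HSF2oe with TGF-β lie outside this rule. They were not followed over the alternatives. Between replicates, the chi-square of counts per degree of freedom was 12.5 to 26.8, so none looked like a repeat of another.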

Additional observations from a re-analysis of the deposited data

How the results depend on the processing

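Over the alternatives, 249 results of single genes kept direction and side of the threshold, 26 lost a call, 5 gained one and 10, all of values that had not passed, changed sign. RLE factors and limma-trend on the deposited log2 CPM (limma 3.58.1) changed none of the 25 results they gave. A library left alone in its group was assumed to vary like the others, and depth did not limit these genes, which had at least 1072 counts in every library. The causes of the changes below were not tested.

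With library totals alone 3 of the 5 genes passed for TGF-β in Mock cells (PLAUR 0.25, PLAT 0.31 not) and 1 for HSF2oe with TGF-β (SERPINE2 -0.14 not), PLAU for TGF-β in HSF2oe cells moved to 0.24, and the sign changed for FAP in HSF2oe without TGF-β (0.065) and PLAU in HSF2oe with TGF-β (0.14). Called genes were then 4493 for TGF-β in Mock and 2045 in HSF2oe cells, against 2212 and 1323. With only the 4 libraries compared, PLAU for TGF-β in HSF2oe cells (0.41) and SERPINE2 for HSF2oe with TGF-β (-0.32) lost their calls, leaving 1 gene called in the second.

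In the difference of the TGF-β effects, 83 genes passed without a filter, among them PLAU (-0.73) and PLAT (-0.68), 2 of the 5 genes, and 23 with DESeq2 1.42.0, among them PLAU (-0.75), 1 of the 5.

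With the replicate number as a block (replicate block), 78 genes passed in that difference, PLAU (-0.75, adjusted p = 0.0095) and PLAT (-0.70, adjusted p = 0.023) among them, 2 of the 5 genes. Calls rose to 3350 for TGF-β in Mock, 2366 for TGF-β in HSF2oe cells and 3614 for HSF2oe without TGF-β, the last against 1937. The block changed no other call of the 5 genes. The numbers were not taken as pairs, since no label says so. The differences of library 1 and library 2 correlated between groups at 0.0498 to 0.163, all above 0. Whether libraries of the same number were handled together was not tested.

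When each library was left out in turn, calls over all genes ran from 1126 to 1634 for TGF-β in Mock, 676 to 972 for TGF-β in HSF2oe, 353 to 1355 for HSF2oe without TGF-β (353 without HSF2oe control library 1 and 427 without Mock control library 2) and 1483 to 2731 for HSF2oe with TGF-β. Of the 5 genes, 3 passed for TGF-β in Mock and 0 to 1 for HSF2oe with TGF-β. Log2 fold changes ran from 0.46 to 0.56 for PLAUR and 0.51 to 0.61 for PLAT in TGF-β in Mock, 0.27 to 0.54 for PLAU, -0.055 to 0.37 for PLAUR and -0.39 to 0.14 for PLAT in TGF-β in HSF2oe cells, 0.54 to 1.04 for PLAT and -0.17 to 0.14 for FAP in HSF2oe without TGF-β, and -0.36 to -0.27 for SERPINE2, 0.24 to 0.67 for PLAUR, -0.15 to 0.32 for PLAT and -0.15 to 0.037 for PLAU in HSF2oe with TGF-β. TPM gave the same order of levels as RPKM in all 4 groups. Both use the same counts and exonic lengths, so the order within a library is the same by construction. This is no separate check of the order.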
